A study of Homo sapiens with 2 samples.

Results

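The ubiquitin-specific protease (USP) genes encode the largest family of deubiquitinases, cysteine proteases that cut ubiquitin from proteins or from ubiquitin chains. Family members act on histones, on DNA repair and cell cycle proteins, on receptors at endosomes and on chains bound to the proteasome, and a few carry the fold without the enzyme activity. The genes were taken by symbol, as USP followed by a number and at most 1 letter. The rule found 52 genes in the RefSeq gene table of GRCh38, of which 51 are protein-coding and 1, USP41P, is a pseudogene, among 20037 protein-coding genes in all. Of the 52 genes, 22 had at least 1 peak in the Flag ChIP and 30 had none; 23.3% of all protein-coding genes had one.

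The cells were PLC/PRF/5, an established line from a human liver cancer, and in both libraries they carried a lentivirus for overexpression of ZFP64, a zinc finger transcription factor. The Flag ChIP library held chromatin precipitated with a Flag antibody, and the input library held chromatin without precipitation. Each kind has 1 library, so no value has a replicate error and no test between conditions was made. No Flag ChIP of untagged cells was analysed here, so antibody background at a peak cannot be told apart from ZFP64. The sources used here do not say whether the cells were a pool or 1 clone, and with no expression measured the cell type could not be checked against its markers.

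A peak is a region of read enrichment in the Flag ChIP, and its fold is the authors' ratio of ChIP to expected background, taken at the highest point of the peak, the summit. The fold, the q-value (a p-value adjusted over the whole peak calling), the class and the assigned gene of each peak are the authors' own. A promoter peak lies within 3 kb of an annotated transcription start. ChIP fragments at the summit were recovered from the fold and p-value, and their exact Poisson 95% intervals cover counting error only. Total read counts of the libraries were not used here, so depth is given as these fragments.

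The promoter sequences of the 3 USP genes with the highest folds are shown first, because the highest promoter peaks of the family cover them. Each is the 250 bases before a RefSeq start (RefSeq, GRCh38.p14), written 5′ to 3′ on the strand of the gene. Capitals mark matches, on either strand, to the GC box (GGGCGG), the CCAAT box (CCAAT), the TATA box (TATAAA), the cyclic AMP response element (TGACGTCA), the NRF1 motif (GCATGCGC) and the ZNF143 core (ACTACAA). Copies of the GC box may overlap each other. The USP36 window is chr17:78840815-78841064 on the minus strand, the USP3 window chr15:63504343-63504592 on the plus strand and the USP10 window chr16:84699750-84699999 on the plus strand.
USP36: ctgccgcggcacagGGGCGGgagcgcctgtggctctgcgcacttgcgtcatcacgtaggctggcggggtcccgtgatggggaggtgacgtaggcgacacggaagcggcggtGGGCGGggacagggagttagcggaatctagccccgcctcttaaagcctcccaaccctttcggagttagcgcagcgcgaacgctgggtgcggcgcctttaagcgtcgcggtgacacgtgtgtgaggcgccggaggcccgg
USP3: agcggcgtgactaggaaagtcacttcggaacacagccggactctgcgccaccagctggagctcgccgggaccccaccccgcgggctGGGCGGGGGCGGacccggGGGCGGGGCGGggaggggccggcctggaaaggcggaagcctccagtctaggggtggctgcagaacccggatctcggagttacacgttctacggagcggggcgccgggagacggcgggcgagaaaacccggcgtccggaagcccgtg
USP10: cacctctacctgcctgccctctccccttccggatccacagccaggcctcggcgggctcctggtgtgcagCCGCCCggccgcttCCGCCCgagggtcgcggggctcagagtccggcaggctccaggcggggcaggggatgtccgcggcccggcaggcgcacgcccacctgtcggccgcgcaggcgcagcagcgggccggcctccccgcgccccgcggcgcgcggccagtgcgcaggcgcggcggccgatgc
The windows held 2 GC boxes at USP36, 4 at USP3 and 2 at USP10, and none of the other motifs. Their GC content was 68.8%, 72.4% and 80%.

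The promoters of USP4 and USP5 are shown for contrast, as the first family members in number order without an assigned peak. The USP4 window is chr3:49340054-49340303 on the minus strand, and the USP5 window is chr12:6851900-6852149 on the plus strand.
USP4: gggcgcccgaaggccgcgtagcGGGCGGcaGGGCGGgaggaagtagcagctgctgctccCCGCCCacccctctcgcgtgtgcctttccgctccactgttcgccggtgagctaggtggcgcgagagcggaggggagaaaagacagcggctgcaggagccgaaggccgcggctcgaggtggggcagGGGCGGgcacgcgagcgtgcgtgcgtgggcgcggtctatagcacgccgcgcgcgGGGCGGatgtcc
USP5: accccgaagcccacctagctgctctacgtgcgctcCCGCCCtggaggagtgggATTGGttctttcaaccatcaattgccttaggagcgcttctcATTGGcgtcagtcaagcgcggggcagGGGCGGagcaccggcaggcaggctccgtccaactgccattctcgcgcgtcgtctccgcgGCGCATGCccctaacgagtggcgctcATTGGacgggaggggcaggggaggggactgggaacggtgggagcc
USP4 held 5 GC boxes in a window of 74.0% GC. USP5, at 66.0% GC, held 2 GC boxes, 3 CCAAT boxes and 1 NRF1 match. GC boxes were thus present in all 5 windows printed so far, with and without a peak. A match describes the letters and does not show that a factor binds there.

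The share of USP genes with a promoter peak was above that of all protein-coding genes, while the order of the median folds depended on how peaks were counted. Of the 51 protein-coding members, 21 had a promoter peak (41.2%, exact binomial 95% interval 27.6 to 55.8), against 20.2% of all protein-coding genes. With any assigned peak counted, 22 members (43.1%) had one, against 23.3% of all genes. All 21 kept a peak within 1 kb of the start, where the share of all genes was 19.3%. A fold of at least 5 left 17 members (33.3%, 20.8 to 47.9), against 15.7%. A −log10 q of at least 10 left 11 members (21.6%, 11.3 to 35.3), against 11.6%, and the interval then reaches below the share of all genes. The intervals treat genes as independent, and no test of the list against other genes was made. The members with a promoter peak had a median highest fold of 6.08 (quartiles 5.46 to 9.71), below the 7.39 (5.20 to 12.6) of the 4049 protein-coding genes with one. With each promoter peak as its own value the order turned, at 7.40 (5.46 to 10.8) for the 23 USP peaks and 6.98 (5.05 to 11.7) for all 4905.

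**Figure D1:**
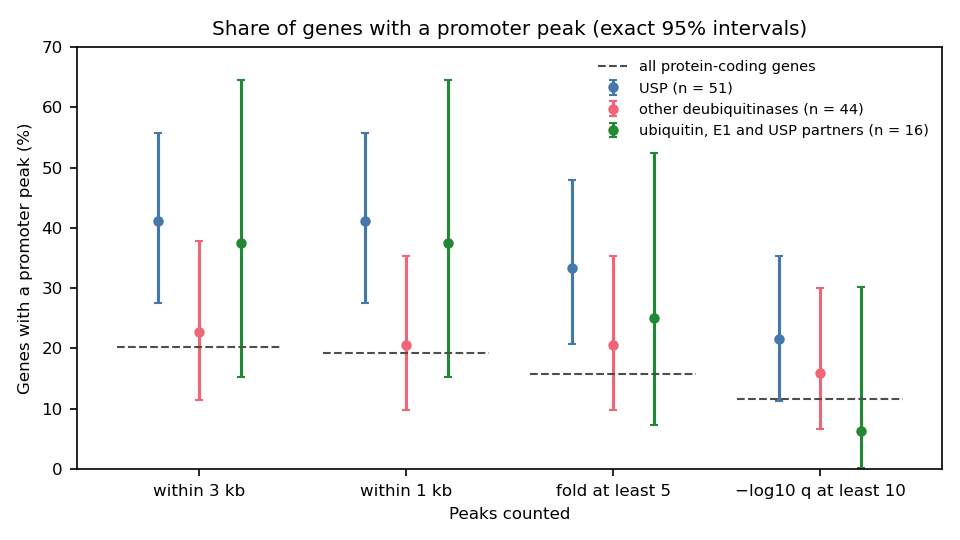
Share of genes with a promoter peak, in percent, for 4 ways of counting peaks along the horizontal axis. Points are the USP genes, other deubiquitinases and ubiquitin genes with USP partners, bars are exact binomial 95% intervals and dashed lines are all protein-coding genes; the USP share falls from 41.2% within 3 kb to 21.6% at a −log10 q of at least 10.

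Among the regulators of DNA repair, the cell cycle and p53 or MYC stability, 7 of 11 members had a promoter peak, with folds from 3.19 to 61.4. The share of all protein-coding genes was 20.2%. Role groups are small and were chosen with earlier results of these data known, and differences between them were not tested. USP36, a nucleolar deubiquitinase that stabilises MYC, had the highest fold of the family, 61.4, which ranked 79 of the 4905 promoter peaks. Its peak spanned chr17:78839419-78841428 (hg38, 2010 bp), covered the annotated start (q = 3.55e-265). It held 172 ChIP fragments (147 to 200) over a background of 1.82. The summit lay 816 bp downstream of the annotated start and 743 bp downstream of the nearest RefSeq start, so the highest signal was not at the printed window itself.

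A further USP36 peak lay inside the gene, at chr17:78818109-78818683, and was classed as a promoter because another transcript of the gene starts 260 bp away. It had a fold of 11.9 (q = 2.89e-30), with 38 fragments (26.9 to 52.2) over 2.28. Its summit was 23045 bp from the 5′ end of the gene in RefSeq. USP36 therefore carried promoter peaks at separate starts of the deposited annotation. The inner start rests on that annotation, as the nearest RefSeq start used here lay 22420 bp from the inner summit. The outer peak held more fragments than the inner, with intervals that did not overlap.

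USP10, which removes ubiquitin from p53 and pairs with the stress granule protein G3BP1, had a fold of 18.8 (chr16:84699422-84700949, q = 1.26e-65). It held 67 fragments (51.9 to 85.1) over 2.62, with the summit at -310 bp from the RefSeq start, negative values being upstream. USP45, which acts on the repair nuclease subunit ERCC1, had a fold of 12.2 (chr6:99514964-99515726, q = 1.39e-29) and 36 fragments (25.2 to 49.8). Its summit lay at -45 bp from a RefSeq start. USP1, which with WDR48 acts on FANCD2 and PCNA in DNA repair, had a fold of 9.71 (chr1:62437115-62437621, q = 1.21e-18) and 25 fragments (16.2 to 36.9). That peak lay wholly downstream, 460 bp beyond the annotated start.

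USP7, which acts on MDM2 and p53, had a pair of promoter peaks. The upper one, chr16:8963731-8964484, covered the RefSeq start and had a fold of 9.66 (q = 1.53e-23) and 34 fragments (23.5 to 47.5). The lower one, chr16:8962749-8963393, had a fold of 7.40 (q = 2.13e-11) and 18 fragments (10.7 to 28.4), with its summit 838 bp downstream of that start. The 2 fragment intervals overlapped. USP42, which acts on p53, had a fold of 4.69 at an annotated start, with the summit 24123 bp inside the gene as RefSeq places it. USP47, which acts on DNA polymerase beta, had the lowest fold of the family, 3.19, with 20 fragments (12.2 to 30.9) over the highest background, 5.58. USP11, USP28, USP37 and USP48 had no assigned peak.

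Of the 8 members grouped here as histone H2A or H2B deubiquitinases, 2 had a promoter peak, against 20.2% of all protein-coding genes. The role groups do not share members, and members placed in other groups may also act on histones. USP3, which removes ubiquitin from histone H2A, had the second highest promoter fold of the family, 19.5 (chr15:63503426-63505497, q = 5.45e-73). Its peak was the widest, at 2072 bp, and held 74 fragments (58.1 to 92.9) over 2.86, with the summit at -299 bp from the RefSeq start. A further USP3 peak in the intergenic region at -30440 bp (chr15:63473622-63474071) had a fold of 4.56 (q = 6.19e-08) and 23 fragments (14.6 to 34.5). USP22, the deubiquitinase of the SAGA coactivator complex, had a fold of 6.08 and 14 fragments (7.65 to 23.5). USP16, USP21, USP27X, USP44, USP49 and USP51 had no assigned peak.

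Both genes of the WDR48-bound pair outside DNA repair, USP12 and USP46, had a peak beside their start, but only USP12 was credited with one. Within 3 kb of a RefSeq start, 23.3% of all protein-coding genes had a peak, and 20.2% had an assigned promoter peak. The USP12 promoter peak (chr13:27171018-27171363) had a fold of 5.05 (q = 4.46e-06) and 14 fragments (7.65 to 23.5), with the summit 645 bp downstream of the RefSeq start. A distal peak assigned to USP12 (chr13:26968911-26969369) had the higher fold, 13.8 (q = 2.16e-30), with 33 fragments (22.7 to 46.3) over 1.47. It lay 126337 bp from the annotated start, and the RefSeq gene closest to it was the pseudogene RPS21P8, 8179 bp away. The sources used here do not say how the deposited annotation chose USP12 for it, and the pseudogenes RPS20P32 (48148 bp) and FGFR1OP2P1 (63135 bp) were also closer in RefSeq.

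In the group that acts on free ubiquitin chains and the proteasome, 1 of 3 members had a promoter peak, against 20.2% of all protein-coding genes. This was USP13, a paralogue of the free-chain protease USP5. Its fold was 16.3 (chr3:179652185-179653893, 1709 bp, q = 4.49e-41), with 42 fragments (30.3 to 56.8) over 1.64 and the summit at -178 bp from the RefSeq start. USP5 and the proteasome-bound USP14 had no assigned peak. The peak nearest to USP5 was credited to TPI1, which encodes a glycolytic enzyme, and lay 978 bp beyond the gene with a fold of 4.56.

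In the group with roles in Wnt, TGF-beta, NF-kappaB and interferon signalling, 4 of 8 members had a promoter peak, with folds of at most 7.70. The share of all protein-coding genes was 20.2%. USP9X, which stabilises the survival protein MCL1, had a promoter peak with a fold of 7.70 (chrX:41085372-41086687, q = 7.16e-12) and 18 fragments (10.7 to 28.4). An intergenic peak 16465 bp beyond the RefSeq gene (chrX:41253044-41253607) had a fold of 8.54 (q = 4.13e-17) and 26 fragments (17.0 to 38.1). The promoter and intergenic intervals of USP9X overlapped. USP25, USP38 and USP2 had promoter folds of 6.07, 5.68 and 4.67, each peak wholly downstream of the start. USP2 stabilises cyclin D1, and USP38 acts on the kinase TBK1. USP4, USP15 and USP18, the protease for the ubiquitin-like protein ISG15, had no assigned peak.

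USP34, which acts on axin in Wnt signalling, was the single member with an assigned peak and none at a promoter. The deposited table classed the peak (chr2:61177002-61177840) as a 5′ untranslated region, 11956 bp from an annotated USP34 start, with a fold of 6.15 (q = 1.07e-09) and 19 fragments (11.4 to 29.7). In RefSeq that peak overlapped the transcribed pseudogene AHSA2P and the noncoding gene C2orf74-AS1. The RefSeq span of USP34 lay 9623 bp away. Its RefSeq start had no peak within 3 kb, so the credit of this peak to USP34 rests on the transcript set behind the deposited annotation.

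Among members that work at membranes and organelles, 2 of 8 had a promoter peak, against 20.2% of all protein-coding genes. USP33, which binds the VHL protein, had a fold of 5.47 and 26 fragments (17.0 to 38.1). USP30, on the mitochondrial outer membrane, had a fold of 4.69 and 11 fragments (5.49 to 19.7), the fewest of the family. The USP30 peak covered an inner RefSeq start, with the summit 29729 bp from the 5′ end of the gene. USP6, USP8, which acts on receptors at endosomes, USP19, USP20, USP32 and USP35 had no assigned peak. A group of 4 members was labelled as without deubiquitinase activity from general knowledge. Activity was not measured here, and the label may not hold for each of them. Of these 4 members, 1 had a promoter peak, against 20.2% of all protein-coding genes. It was the splicing factor USP39, with a peak over its start (chr2:85602430-85603008, fold 8.10, q = 8.53e-19) and 31 fragments (21.1 to 44.0). USP50, USP53 and USP54 had no assigned peak. Of the 8 less described or tissue-restricted members, 3 (USP24, USP31 and USP43) had a promoter peak, against 20.2% of all protein-coding genes. The USP24 peak (chr1:55214773-55215923, q = 1.65e-16) had a fold of 7.69 and 28 fragments (18.6 to 40.5), and the folds of USP31 and USP43 were 5.99 and 5.46. USP26, USP29, USP40, USP9Y on the Y chromosome and the pseudogene USP41P had none.

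**Figure D2:**
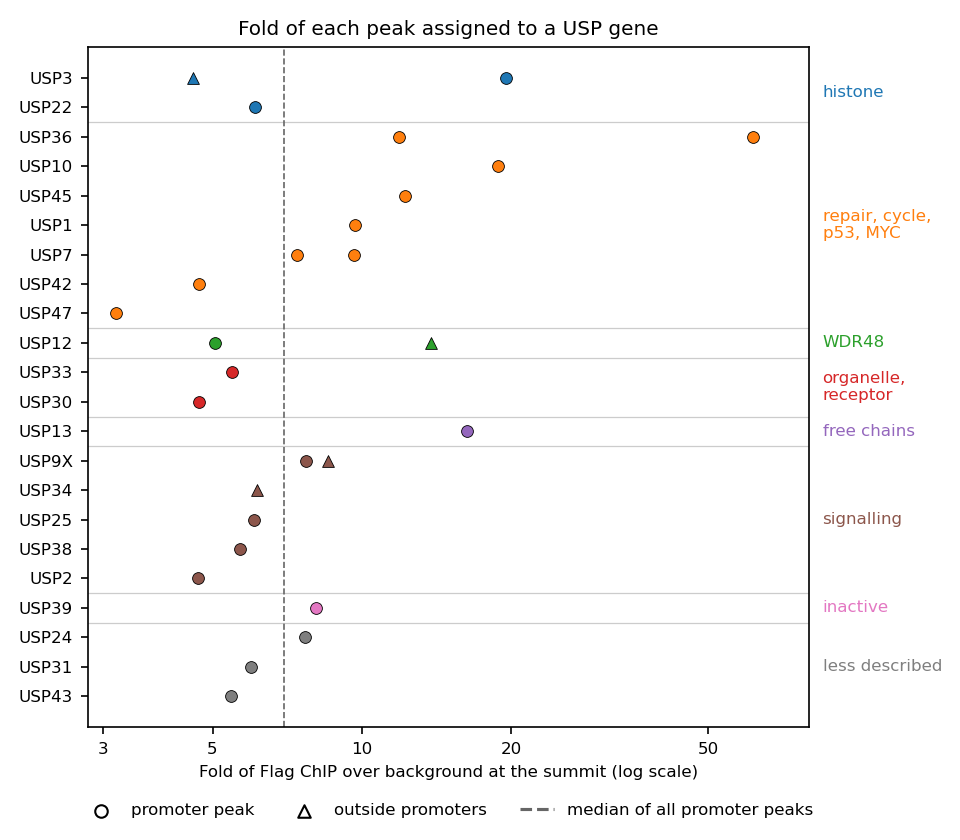
Fold of each of the 27 peaks assigned to a USP gene, on a log scale, with 1 row per gene and colours for role groups; circles are promoter peaks, triangles are peaks outside promoters and the dashed line is the median of all promoter peaks, 6.98. USP36 stands highest at 61.4, and 5 genes have a promoter fold of at least 10.

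Some close relatives within the family differed in whether they had an assigned promoter peak. Over 16 groups of paralogues, all members had one in 2 groups, some but not all in 8 and none in 6, with no background share computed for such groups. The mixed groups include USP12 with USP46 and USP22 with USP27X, although peaks credited to noncoding neighbours lie at the starts of USP46 and USP27X. Both USP36 (61.4) and its relative USP42 (4.69) had a peak, as did USP31 (5.99) and USP43 (5.46). USP13 (16.3), USP45 (12.2), USP9X (7.70), USP25 (6.07), USP22 (6.08), USP33 (5.47) and USP38 (5.68) had promoter peaks. Their respective relatives USP5, USP16, USP9Y, USP28, USP51, USP20 and USP35 had no assigned peak. The Y chromosome, where USP9Y lies, had no peaks at all, so USP9X and USP9Y cannot be compared in this way. The relatives USP4, USP11 and USP15 all lacked an assigned peak.

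The 27 USP peaks were mostly at starts. Promoter peaks made up 23 of them (85.2%, 66.3 to 95.8), against 77.0% of all 6373 peaks. The other 4 were the 3 distal intergenic peaks of USP3, USP9X and USP12 and the peak assigned to USP34. No USP peak was classed as intronic, where the share of all peaks was 10.5%. A count of 0 of 27 allows a share of up to 11.1% by 3 counts, and up to 12.8% by the exact interval. Of the 22 genes with a peak, 5 had 2 (USP3, USP7, USP9X, USP12 and USP36) and 17 had 1. The share with at least 2 was 22.7% (7.82 to 45.4), against 17.1% of all 5246 genes with a peak.

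Relative to the annotated start, 13 of the 23 promoter peaks (56.5%, 34.5 to 76.8) covered it, 9 (39.1%, 19.7 to 61.5) lay wholly downstream and 1, the upper USP7 peak, wholly upstream. The shares over all promoter peaks were 60.5% covering and 26.6% wholly downstream. The median summit lay 235 bp downstream of the annotated start (quartiles 32 to 418), with 17 of 23 summits (73.9%, 51.6 to 89.8) on that side. All promoter peaks had a median of 179 bp (-102 to 389) and 69.5% downstream. The 6 upstream summits were at -719 bp for the upper USP7 peak, -296 bp for USP24, -288 bp for USP10, -217 bp for USP3, -161 bp for USP39 and -43 bp for USP45.

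**Figure D3:**
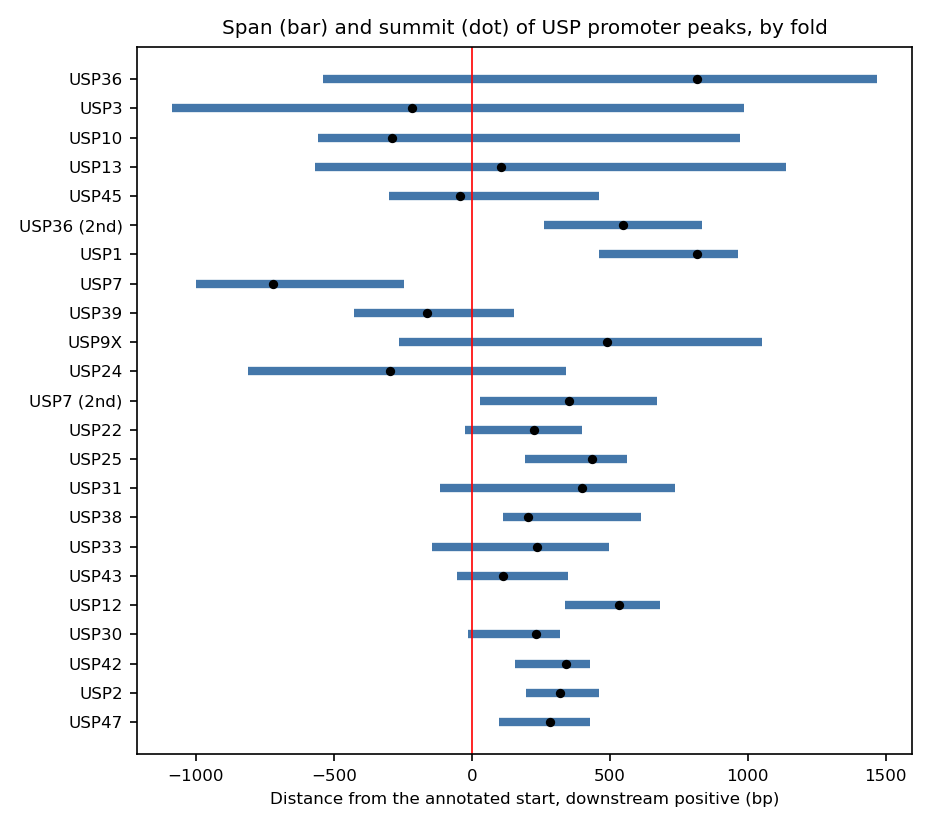
Span (bar) and summit (dot) of the 23 USP promoter peaks in bp from the annotated start (vertical line), downstream to the right, ordered from the highest fold at the top; "2nd" marks the lower-fold peak of a gene with 2. The broad peaks of USP36, USP3, USP10 and USP13 cover the start, and the 9 peaks that begin beyond the line lie downstream of it.

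The peaks held few fragments in many cases. Over the 23 promoter peaks the median was 20 fragments (quartiles 14 to 35.0, range 11 to 172), against 21.0 (15 to 36.0) for the 4837 promoter peaks with recovered fragments. Background at the USP summits had a median of 2.03, against 2.08 for those peaks. Median width was 579 bp, against 573 bp. In 11 of the 23 peaks, fewer than 20 fragments lay at the summit, so the order of folds among the lower members is not resolved. USP25, USP38, USP22 and USP31 had folds from 5.68 to 6.08 and overlapping fragment intervals.

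**Figure D4:**
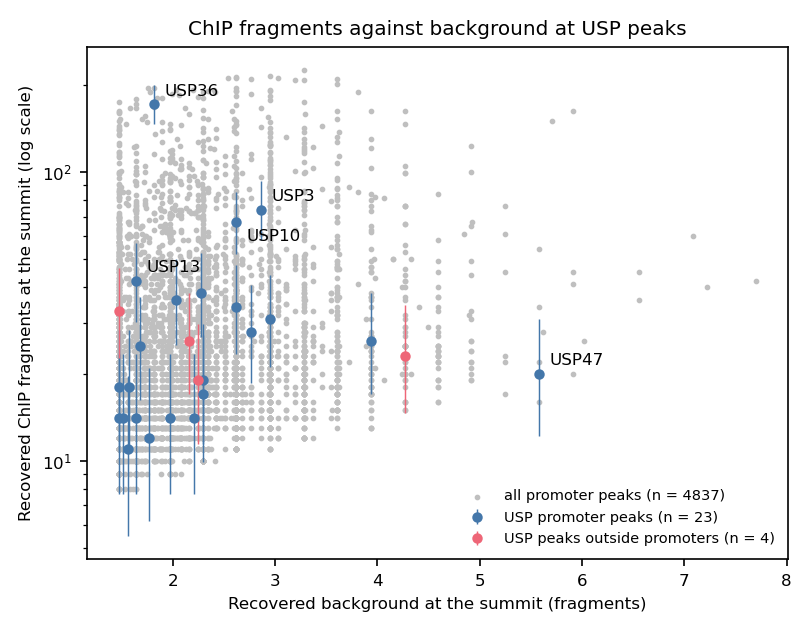
Recovered ChIP fragments at the summit (log scale) against recovered background for USP peaks, with exact Poisson 95% intervals, over all promoter peaks in grey. USP36 holds 172 fragments over a background of 1.82, while USP47 holds 20 over 5.58.

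Some peaks at USP starts were credited to noncoding neighbours. At USP27X and USP46, which had no assigned peak, and at USP12, the deposited annotation named the antisense genes USP27X-AS1, USP46-AS1 and USP12-AS2. RefSeq calls these genes USP27X-DT, USP46-DT and USP12-DT, each on the opposite strand from its partner. Their starts lay 128 bp, 105 bp and 448 bp from the USP starts. The windows before the 3 USP starts are shown because each is overlapped by such a peak, and they were chosen after the values were seen. They are chrX:49879234-49879483 on the plus strand for USP27X, chr4:52659302-52659551 on the minus strand for USP46 and chr13:27171812-27172061 on the minus strand for USP12, with motif matches in capitals.
USP27X: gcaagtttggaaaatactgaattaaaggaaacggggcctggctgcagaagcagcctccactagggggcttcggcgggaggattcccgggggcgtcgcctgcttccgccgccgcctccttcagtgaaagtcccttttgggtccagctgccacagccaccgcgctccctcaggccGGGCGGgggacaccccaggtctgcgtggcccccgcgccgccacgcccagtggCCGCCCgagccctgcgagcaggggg
USP46: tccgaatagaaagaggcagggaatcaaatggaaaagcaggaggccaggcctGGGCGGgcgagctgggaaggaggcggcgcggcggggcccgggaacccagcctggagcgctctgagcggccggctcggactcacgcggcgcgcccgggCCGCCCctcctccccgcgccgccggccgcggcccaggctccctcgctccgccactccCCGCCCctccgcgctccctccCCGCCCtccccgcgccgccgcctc
USP12: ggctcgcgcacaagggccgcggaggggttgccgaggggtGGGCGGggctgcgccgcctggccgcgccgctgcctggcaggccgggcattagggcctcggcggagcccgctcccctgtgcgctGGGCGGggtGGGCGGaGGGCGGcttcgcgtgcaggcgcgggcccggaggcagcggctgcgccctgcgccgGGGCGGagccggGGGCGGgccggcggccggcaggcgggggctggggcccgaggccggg
USP27X held 2 GC boxes, USP46 held 4 and USP12 held 6, and none held the other motifs.

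The USP46-AS1 peak (chr4:52658810-52659951) covered the starts of both genes, with a fold of 12.6 (q = 1.35e-33) and 41 fragments (29.4 to 55.6). Its summit was at -267 bp from the USP46 start. USP46, like USP12, forms its active complex with WDR48. The USP27X-AS1 peak (chrX:49878768-49879459) ended 25 bp before the USP27X start and had a fold of 10.6 (q = 2.80e-21) and 27 fragments (17.8 to 39.3). USP27X, like USP22, removes ubiquitin from histone H2B. The USP12-AS2 peak (chr13:27171984-27172348) lay 173 bp upstream of the USP12 start, with a fold of 5.57 and 21 fragments (13 to 32.1), so USP12 had a peak on each side of its start. A peak between opposed starts cannot be given to either gene from these files.

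Counting any peak within 3 kb of a RefSeq start, whatever the assigned gene, again gave 21 members (41.2%), against 23.3% of all protein-coding genes. Of these, 19 were the same as before. USP27X and USP46 entered, and USP2 and USP42 left, so that 23 members had a peak by one rule or the other. The share of all protein-coding genes with a peak by either rule was not computed, so the count of 23 has no background share. For the USP genes in the promoter table its starts were used, and for the other 13 either end of the gene. The USP2 peak lay 297 bp inside the 5′ end of the gene, while the table lists a USP2 start farther in.

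Distances to the nearest peak varied widely among the members without an assigned peak, and none were computed for other genes. Of the 30 genes with no assigned peak, USP9Y lies on a chromosome without peaks. For the other 29, the nearest peak lay a median of 64745 bp from the gene (range 0 to 1145341), the 0 being USP46. A peak lay within 3 kb of 4 of these genes, within 10 kb of 6 and within 100 kb of 19. The 4 were USP46, USP27X, USP5 and USP54, where a peak credited to PPP3CB-AS1 (fold 13.4) lay 1629 bp beyond the 3′ end. The farthest were USP53 (1145341 bp), USP51 (953279 bp) and USP29 (687893 bp).

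At the median, RefSeq start windows of USP genes were rich in G and C with or without an overlapping peak. Single windows without a peak went as low as 37.7% GC, at USP50. The promoter table held 53 windows (250 bases before to 50 after a start) from 39 of the 52 genes. A peak overlapped 13 of them, from 12 genes, against 13.5% of the 22199 windows of protein-coding genes. The median GC content was 72.0% (quartiles 69.7 to 76.7) in the 13 windows with a peak and 65.8% (56.6 to 72.1) in the 40 without. All protein-coding windows had medians of 71.3% and 61.0%. The lowest GC contents among USP windows with a peak were 51.0% at the outer USP36 start, 58.3% at the inner USP30 start and 61.0% at USP33. Each of these windows was only partly overlapped by its peak, with the summit outside the window. GC content moved with the presence of a peak in the family and in all genes, and its part in the result was not tested.

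The GC box was in 11 of the 13 USP windows with a peak (84.6%) and 27 of the 40 without (67.5%), against 80.6% and 52.5% of protein-coding windows and 45.0% of all windows in the table. The CCAAT box was in 1 of 13 (USP13) and 12 of 40, against 24.8% and 36.2%. The TATA box was in 0 of 13 and in 3 of 40 (USP16, USP40 and an inner USP46 start), against 3.47% and 10.4%. The NRF1 letters were in 0 of 13 and in 3 of 40 (USP5, USP28 and USP53), against 3.31% and 3.81%. The ZNF143 core was in 1 of the 53 windows, at the USP39 start with a peak, and the cyclic AMP response element in none of them. Over all windows in the table the shares were 34.6%, 11.5%, 3.05%, 2.77% and 1.85% for these 5 motifs in turn.

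**Figure D5:**
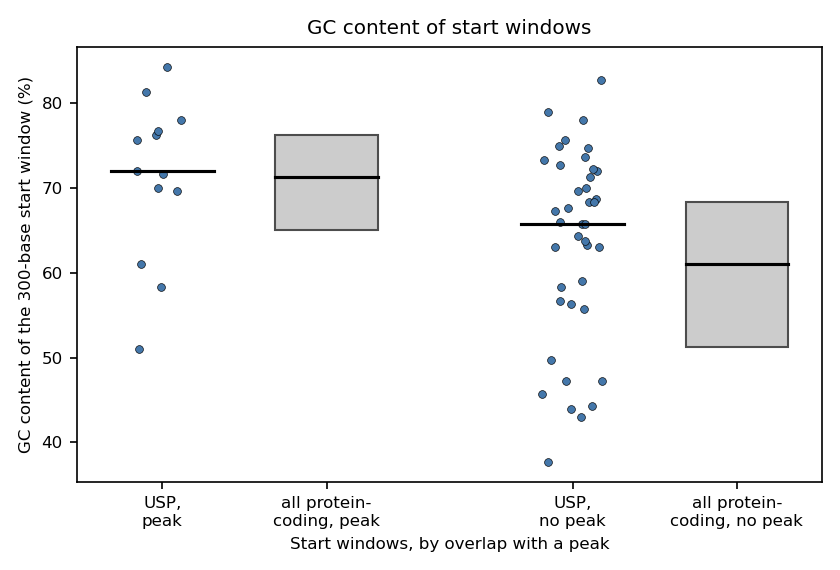
GC content, in percent, of the 300-base windows at RefSeq starts, split by overlap with a peak: points are USP windows with their median as a line, and grey boxes are quartiles with the median for all protein-coding windows. The USP medians are 72.0% with a peak and 65.8% without.

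A list of 44 genes came from deubiquitinase families outside the USP symbols, and not all of them encode active enzymes. Of these genes, 10 had a promoter peak (22.7%, 11.5 to 37.8), against 20.2% of all genes, with a median fold of 6.86. Highest were OTUD1 (31.4), an ovarian tumour domain protease, the spliceosome core protein PRPF8 (15.7), which carries a metalloprotease fold without activity, the deubiquitinase STAMBPL1 (11.3), the proteasome lid subunit PSMD7 (7.29) and MINDY4 (7.15). By family, 5 of 15 ovarian tumour domain genes, 3 of 12 of the metalloprotease fold, 1 of 4 MINDY genes and 1 of 4 of the ubiquitin C-terminal hydrolases had one. The 4 Josephin genes and 4 genes of the USP fold outside the symbol rule, CYLD among them, had none. The USP and other deubiquitinase intervals overlapped, and their difference was not tested.

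Among 16 ubiquitin genes, activating enzymes and USP partners, 6 (37.5%, 15.2 to 64.6) had a promoter peak, against 20.2% of all protein-coding genes. Highest were GMPS (7.81), the GMP synthetase that binds USP7, ATXN7 (6.89) and ATXN7L3 (5.35), which sit with USP22 in the SAGA module, and the activating enzyme UBA1 (5.56). WDR48 and WDR20, partners of USP12 and USP46, and the USP10 partner G3BP1 had none. At a −log10 q of at least 10, 1 of the 16 (6.25%) was left, against 11.6%.

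The authors' table of promoter peaks with a fold above 5 held peaks of 17 USP genes, leaving out USP2, USP30, USP42 and USP47. This repeats the filter for a fold of at least 5 given earlier and is no separate result. That filter left 33.3% of the USP genes, against 15.7% of all protein-coding genes.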

How the data were processed

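Tools listed in the submitters' processing notes, without their roles, are MACS2 2.2.7.1, Bowtie2 2.4.1, deepTools 3.5.0 and SAMtools; the listed build is hg38. The fold of each peak is a ratio of ChIP over background, as the authors deposited it. The p-value and q-value of each peak are also the authors' deposited values, and compare 2 libraries, not conditions. The sources used here do not name the tool behind class and assigned gene.

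Members were matched by gene identifier to RefSeq (GRCh38.p14), and the background was all 20037 protein-coding genes of the autosomes, X and Y. Fragments were solved from fold and p-value as whole numbers under a Poisson model with a pseudocount of 1, which is an inference: it succeeded, to a tolerance of 0.001 in −log10 p, for 6300 (99.97%) of the 6302 peaks whose p-value was not 0. The solver was tested on values simulated from the same fold and Poisson formulas. That checks the arithmetic only, and not whether the authors' values follow this model. Shares have exact Clopper-Pearson 95% intervals. Scripts used Python 3.11.15, pandas 2.3.3 and SciPy 1.17.1.

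Every member was accounted for; full values went to the 10 highest promoter folds, to members with 2 peaks and to those with none at a promoter, and the 5 highest folds were named in other lists, except 1 that is not reported here. Members, role groups, paralogues, lists and rules were chosen with earlier results of these data known. Role groups and paralogues come from general knowledge of the family. Alternatives were a fold of at least 5, a −log10 q of at least 10, a 1 kb window, RefSeq starts and any assigned peak.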

Additional observations from a re-analysis of the deposited data

How the results depend on the processing

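Of 24 alternatives over 6 results, 21 left a count within 1.5 times or a share or median within its quartiles or interval, and 3 moved it. All 3 were a −log10 q of at least 10, which keeps fewer peaks by construction: it left 11 USP genes with a promoter peak (from 21), 12 with any peak (from 22) and 1 of the ubiquitin and partner genes (from 6). The median highest fold of USP genes ranged from 6.08 to 9.71, the top of this range lying on its upper quartile (quartiles 5.46 to 9.71). The filters on fold and −log10 q drop weak peaks and so raise this median by construction. With every promoter peak as its own value, the median was 7.40, above the 6.98 of all promoter peaks. The promoter share of USP peaks ranged from 85.2% to 86.7%. No paired analysis was possible because neither kind of library has a replicate. Few fragments, 11 at the lowest, limit the ranking of the weaker peaks.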

Other observations

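Further genes with a name beginning in USP had peaks but fell outside the symbol rule. USP6NL, which encodes a GTPase-activating protein and no deubiquitinase, had a fold of 48.3 (chr10:11610900-11612034, q-value 1.96e-261), with 190 fragments, a fold below that of USP36 and above those of the other USP genes. USP3-AS1, a noncoding gene named for USP3, had a fold of 5.06 (chr15:63600125-63600710, q-value 2.18e-09), with 24 fragments, 29 bp downstream of its annotated start. Both were chosen after their values were seen.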
